A study of Mus musculus with 6 samples.

Results

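The comparison described here set 2 arrays of mouse proximal tubular cells directly against each other, array A and array B, the single stimuli given at 20% oxygen. They are 2 of the 6 arrays of a study of kidney tubular cells under conditions of diabetes and were chosen by their scanner files and their shared oxygen level. The cells were mProx24, an established line of mouse proximal tubular epithelium whose strain is labelled C57B6, and RNA was read on single-colour Agilent arrays with 1 array for each of 6 conditions. Array A is the scanner file labelled high glucose, whose values stand in the deposited value table under the label high FFAs (free fatty acids), and array B is the scanner file labelled high FFAs, whose values stand in that table under high glucose. The values of each scanner file matched the column with the other label to within an SD of 2.9e-07 on the log2 scale, and the other 4 arrays matched under their own labels. Neither array was relabelled, and no statement is made on which stimulus either received.

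In the scanner file labels array A carried high glucose with a buffer control, and array B normal glucose with palmitate, given at 150 µM for 9 hours on 0.15% bovine serum albumin. The control array had normal glucose and buffer at 20% oxygen. Beside these, levels are given for triple stimuli (high glucose, palmitate and 12 hours at 1% oxygen) and for hypoxia (12 hours at 1% oxygen with normal glucose and buffer). The sixth array, triple stimuli with rapamycin at 0.4 µg/ml, enters only in the choice of probes and in a few ranges. The sources used here do not state the concentrations of glucose.

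All values are log2 levels relative to the 75th percentile of the array, so that 0 marks a signal at that percentile, and all differences are array A minus array B on the log2 scale. The share of the 59305 non-control spots with a signal well above background was 43.1% on array A and 41.2% on array B, and 0 were saturated. All 6 arrays lay on 1 slide. With 1 array per condition no difference could be set against a spread between replicates, there is no p-value, and the error at hand is technical: over 146 probes with 10 spots each, the median SD of repeated spots was 0.06 on array A and 0.07 on array B, which puts the SD of a difference between single spots at 0.09. Different probes of a gene agreed less closely. Among 4245 genes with a further measured probe, the gap between the differences of the 2 probes had an SD of 0.27.

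Proximal tubular cells reabsorb most of the glucose and the protein-bound fatty acids that the glomerulus filters, and live largely on the oxidation of fatty acids. A saturated fatty acid such as palmitate that enters faster than it is oxidised or stored is known to activate PPAR receptors, to fill lipid droplets and to set off the integrated stress response, in which phosphorylation of the initiation factor eIF2 favours translation of the transcription factor ATF4. Glucose that enters a cell is sensed through its phosphates by the factors MondoA and ChREBP, which bind carbohydrate response elements and whose best known target is Txnip.

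Both arrays gave a signal well above background for 16069 genes, of which 224 (1.39%) were at least 2-fold higher on array A and 136 (0.846%) at least 2-fold lower. The 2 shares serve as the background for every count of list members. Differences of at least 4-fold were found for 19 genes in the higher direction and 3 in the lower. The median over all genes was -0.03, the SD was 0.38, 44.4% of genes lay above 0 and 86.1% lay within 0.5 of 0. With the genes split into 4 equal parts by level, the brightest part held 47 genes at least 2-fold higher and 4 at least 2-fold lower, against 71 higher and 74 lower in the dimmest part, so the lower genes were mostly dim. The share of higher to lower calls depends on the treatment of dim signals, since with a normexp background correction 136 genes were higher and 42 lower (76.4% of calls higher, against 62.2%). A further 1243 genes were well above background on 1 of the arrays only, 938 of them on array A and 305 on array B, and their differences are given only as bounds.

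**Figure D1:**
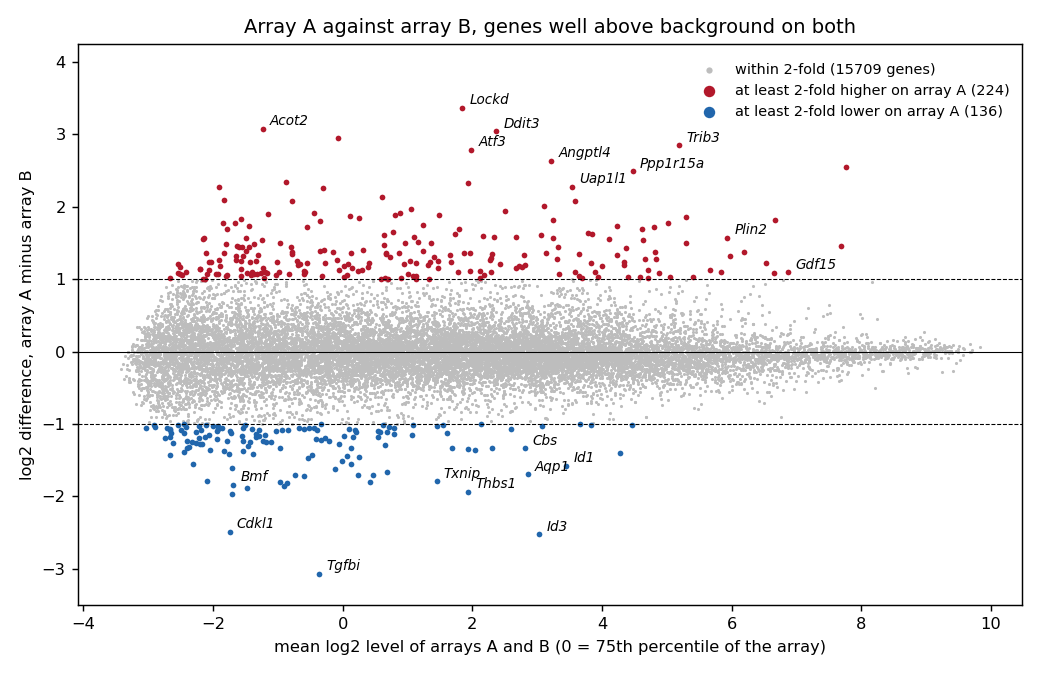
Log2 difference, array A minus array B, plotted against the mean log2 level of both arrays for 16069 genes. Dashed lines mark 2-fold, 224 genes lie above the upper line (red) and 136 below the lower line (blue), and Ddit3, Trib3, Angptl4 and Ppp1r15a stand apart among brighter genes.

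Transcription factors and feedback genes of the ATF4 arm of the stress response were higher on array A throughout the list. All 14 measured members lay above 0, 10 were at least 2-fold higher and 0 lower, and their median was 1.32. Ddit3, which encodes the stress transcription factor CHOP, had a level of 3.89 on array A, 0.85 on array B and 1.06 on control, an 8.25-fold difference between arrays A and B (log2 difference 3.04; probe on mm9 chromosome 10, 126732518 to 126732821). Trib3, a pseudokinase gene that CHOP and ATF4 induce, had 6.62 on array A, 3.77 on array B and 4.32 on control (2.85; chromosome 2, 152163161 to 152163220). Array A stood apart for both, and array B lay near control or below it.

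Atf3, a stress-induced repressor and activator of the same family, had 3.38 on array A, 0.59 on array B and 0.39 on control (2.79; chromosome 1, 192994547 to 192994606). Ppp1r15a, also called GADD34, encodes the subunit that directs dephosphorylation of eIF2 and so closes the feedback loop. It had 5.72 on array A, 3.23 on array B and 3.18 on control (2.49; chromosome 7, 52778320 to 52778379). Chac1, which encodes a glutathione-degrading enzyme, had 6.22 on array A, 4.36 on array B and 4.56 on control (1.86). The remaining members at 2-fold or more were the factors Cebpb (1.55), Nupr1 (1.36) and Atf5 (1.27), the lipoprotein receptor gene Vldlr (1.18) and the secreted stress cytokine gene Gdf15 (1.09). Atf4 itself, which is controlled largely at translation, was at 8.64 on array A, 7.68 on array B and 7.67 on control (0.96), and Ddit4, an inhibitor of mTORC1, had the smallest difference of the list (0.73).

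The sequences upstream of these genes were read because ATF4 and C/EBP factors are known to bind a composite element with the letters TTNCATCA. In the 250 bases before the RefSeq transcription start (build GRCm38.p6), its exact form TTGCATCA was found on either strand in 7 of 148 genes at least 2-fold higher on array A that had a promoter in the table (4.73%), in 1 of 91 genes at least 2-fold lower (1.1%), in 0.657% of 9434 measured genes and in 0.918% of all 27025 promoters. With any base at the third place, the form fixed in the plan, the shares were 6.76% of the higher genes, 4.4% of the lower genes, 2.31% of measured genes and 3.91% of all promoters. The exact form was outside that plan. A match is a description of letters and not a bound site. The 7 genes were Atf3, Chac1, Nupr1 and Vldlr of the list above, the ER gene Herpud1, the proline synthesis gene Pycr1 and Angptl8, a relative of Angptl4 whose product also curbs lipoprotein lipase. Each is shown with 20 bases on either side, 5′ to 3′ on the strand of the gene, with the element or its reverse complement in capitals.
Atf3 (chr1:191183416-191183463, minus strand): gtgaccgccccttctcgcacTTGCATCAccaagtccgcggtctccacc
Chac1 (chr2:119351029-119351076, plus strand): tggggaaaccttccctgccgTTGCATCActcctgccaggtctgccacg
Nupr1 (chr7:126625553-126625600, minus strand): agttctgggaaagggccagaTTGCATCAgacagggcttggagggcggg
Vldlr (chr19:27216800-27216847, plus strand): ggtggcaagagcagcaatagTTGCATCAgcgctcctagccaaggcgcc
Herpud1 (chr8:94386297-94386344, plus strand): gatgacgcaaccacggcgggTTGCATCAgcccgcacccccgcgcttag
Pycr1 (chr11:120643824-120643871, minus strand): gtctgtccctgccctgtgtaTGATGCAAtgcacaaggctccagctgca
Angptl8 (chr9:21835360-21835407, plus strand): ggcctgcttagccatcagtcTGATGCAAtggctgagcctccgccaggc
The 7 genes differed by 2.79 (Atf3), 1.86 (Chac1), 1.63 (Herpud1), 1.58 (Angptl8), 1.37 (Pycr1), 1.36 (Nupr1) and 1.18 (Vldlr). The element lay between positions -200 (Vldlr) and -103 (Pycr1) relative to the start. The cyclic AMP response element TGACGTCA was found in 6 of the 148 higher genes (4.05%), among them Ppp1r15a and Areg, in 0 of the 91 lower genes, and in 3.21% of measured genes.

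Enzymes that make serine, one-carbon units and related amino acids, which ATF4 is known to control, were mostly higher on array A. Of 12 measured, 11 lay above 0, 6 were at least 2-fold higher, 1 was lower and the median was 1.01. Aldh1l2, a mitochondrial enzyme of folate metabolism, was at 1.85 on array A, -0.07 on array B and 0.19 on control (1.92). Cth, which makes cysteine from cystathionine, was at 1.17 on array A, -0.67 on array B and -0.15 on control (1.84), and its other probe also gave 1.84. The enzyme just before it in transsulfuration went the other way: Cbs was at 2.15 on array A, 3.48 on array B and 3.41 on control (-1.34). The others at 2-fold or more were Pycr1 (1.37), Mthfd2 (1.10), Psph (1.03) and Shmt2 (1.03), and Asns, the asparagine synthetase gene, was at 0.99. Phgdh, which commits glycolytic carbon to serine, differed least, by 0.24.

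Amino acid transporters had a median of 0.72, with 9 of 11 above 0, 3 at least 2-fold higher and 0 lower. Slc6a9, a glycine transporter gene, was at 5.90 on array A, 4.13 on array B and 4.19 on control (1.77), and Slc3a2, which encodes the heavy chain shared by several exchangers, at 6.88 on array A, 5.50 on array B and 5.49 on control (1.37). Slc7a1, the cationic amino acid transporter gene, differed by 1.03, and Slc7a5, a light chain that pairs with the Slc3a2 product, by 0.97. Slc7a11, the cystine importer that pairs with the Slc3a2 product, was measured on array A only, at -0.40, and was at least 7.68-fold higher there than on array B (bound 2.94). Of 20 cytosolic aminoacyl-tRNA synthetases, which load amino acids onto tRNA, 17 lay above 0 with a median of 0.54, although Wars alone passed 2-fold (1.09). The next were the genes for serine (Sars, 0.93), threonine (Tars, 0.84) and leucine (Lars, 0.81).

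The chaperones of the endoplasmic reticulum (ER) shared little of this difference. Of 22 measured genes of the unfolded protein response, 18 lay above 0, but the median was 0.15 and 2 were at least 2-fold higher, Herpud1 (1.63), which acts in ER-associated degradation, and Dnajb9 (1.31), an ER cochaperone gene. Herpud1 was at 4.67 on array A, 3.04 on array B and 3.05 on control. The main chaperone gene Hspa5 was at 7.83 on array A, 7.18 on array B and 7.09 on control (0.64), and Xbp1, the factor of the IRE1 arm, differed by 0.51. Hsp90b1 (0.15), Calr (0.03), Pdia4 (0.01) and Pdia6 (-0.13) lay close to 0.

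**Figure D2:**
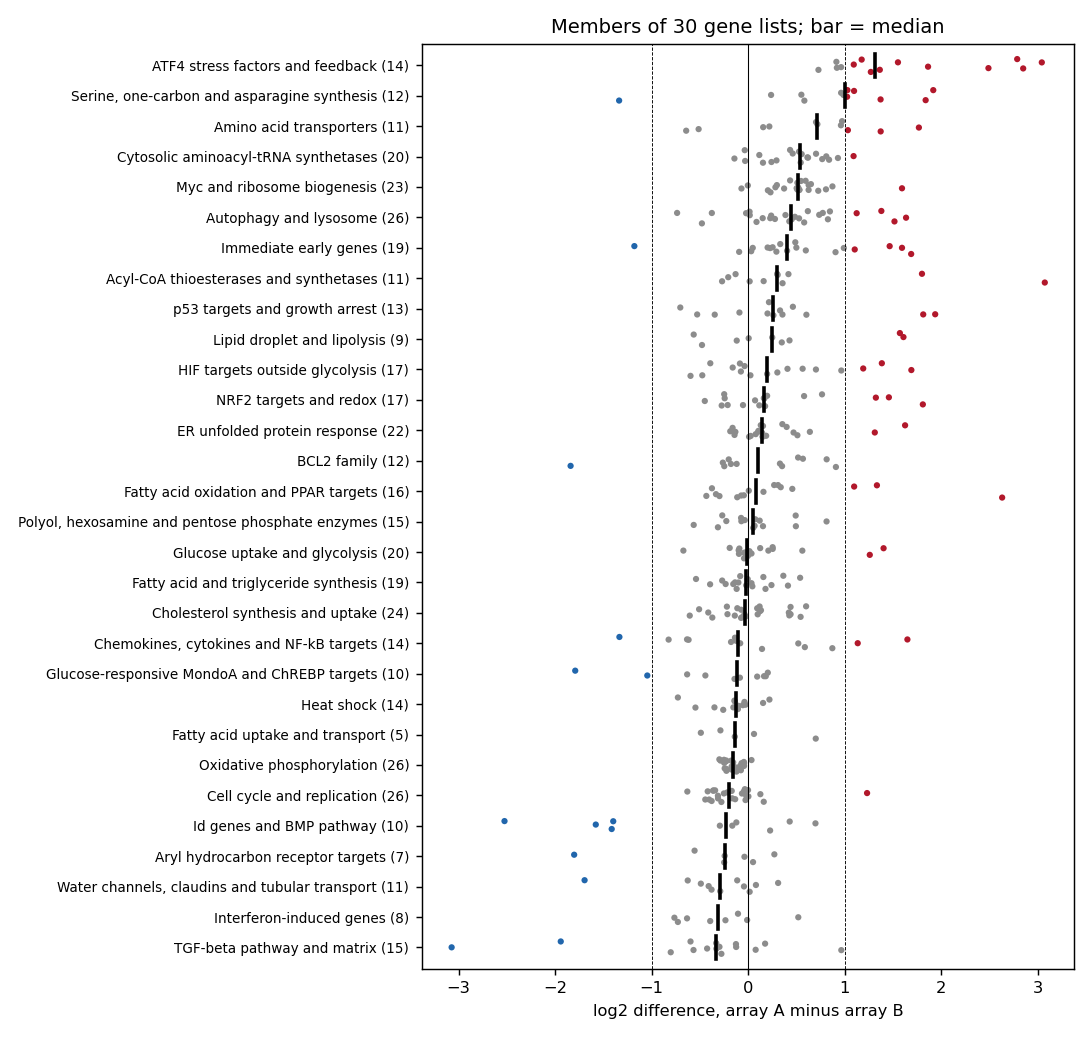
Each point is a gene of 1 of 30 lists (number of measured members in brackets) at its log2 difference, array A minus array B. The black bar is the list median, red points are at least 2-fold higher and blue points at least 2-fold lower. The medians run between 1.32 for ATF4 stress factors and -0.33 for the TGF-beta and matrix list.

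Several genes of lipid storage and of PPAR signalling were higher on array A, as was Cpt1a, which admits fatty acids to beta-oxidation, while the enzymes of the pathway itself differed little and in both directions. Angptl4, a PPAR target whose secreted product blocks lipoprotein lipase, was at 4.53 on array A, 1.90 on array B and 1.29 on control, a 6.20-fold difference between arrays A and B (2.63; chromosome 17, 33911880 to 33911939). Acot2, a mitochondrial acyl-CoA thioesterase gene, was at 0.30 on array A, -2.77 on array B and -2.71 on control, an 8.43-fold difference (3.08; chromosome 12, 85334071 to 85334130). Its cytosolic near copy Acot1 was at 0.55 on array A, -1.25 on array B and -1.45 on control (1.80). Their sequences are alike, and how far each probe also reads the other was not tested.

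The list of beta-oxidation and PPAR target genes had 16 measured members, of which 9 lay above 0, 3 were at least 2-fold higher and 0 lower, with a median of 0.08. Besides Angptl4 these were Pdk4, the kinase gene that shuts off pyruvate oxidation, at 2.32 on array A, 0.99 on array B and 0.74 on control (1.33), and Cpt1a, the gate of mitochondrial fatty acid import, at -0.64 on array A, -1.74 on array B and -1.84 on control (1.10). The difference of the dim Cpt1a probe was 0.65 with a normexp background correction. The beta-oxidation enzymes Acadm (-0.43), Hadhb (-0.38), Hadha (-0.33) and Acadvl (-0.30) lay below 0. The dehydrogenase gene Acadl (0.34) and the carnitine carrier gene Slc25a20 (0.31) lay above it, as did the mitochondrial carrier gene Ucp3 (0.46), and Cpt2 (-0.04) and Etfdh (0.01) lay near it.

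Among lipid droplet genes, 2 of 9 measured were at least 2-fold higher and 0 lower, with a median of 0.25. Plin2, which encodes the droplet coat protein of most cells, was at 6.72 on array A, 5.15 on array B and 4.87 on control (1.57; chromosome 4, 86302847 to 86302906). Hilpda, which encodes an inhibitor of lipolysis, was at 3.87 on array A, 2.26 on array B and 2.12 on control (1.61), and its other probe gave 1.63. Plin4, a further droplet coat gene, was measured on array A only and was at least 5.18-fold higher there (bound 2.37). The lipases Pnpla2 (0.01) and Lipe (-0.48), the cofactor Abhd5 (0.25) and the droplet protein gene Cideb (-0.56) were within 2-fold. In the list of thioesterases and acyl-CoA synthetases, the Acot1 and Acot2 genes were the 2 of 11 at 2-fold, and the synthetase genes Acsl1, Acsl3, Acsl4 and Acsl5 lay between -0.27 and 0.36, and the thioesterase gene Acot13 had 0.42.

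Genes that make or take up lipid differed little between the arrays. Of 19 genes of fatty acid and triglyceride synthesis and 24 of cholesterol synthesis and uptake, 0 were at least 2-fold different in either direction, with medians of -0.02 and -0.03 that sit at the median of all genes. The widest were Scd1 (0.54), a desaturase gene, and Acacb (-0.54), which makes the inhibitor of Cpt1, in the synthesis list, and Hmgcs1 (-0.60) and Fdps (0.60) in the cholesterol list. Next were Gpam (0.41), of glycerolipid synthesis, and Me1 (-0.39), the malic enzyme gene, in the first, and Lss (0.54) in the second. Of 11 fatty acid uptake genes 5 were measured on both arrays and 0 were at 2-fold. Fabp3, a further binding protein gene, was measured on array A only and was at least 1.96-fold higher there (bound 0.97). The transport protein gene Slc27a1 had 0.70, Lrp2 -0.49 and the binding protein gene Fabp5 -0.29, and Cd36, Fabp1, Fabp4 and Lpl were well above background on neither.

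Txnip, whose product binds thioredoxin and limits the uptake of glucose, differed in the opposite sense. It was at 0.55 on array A, 2.34 on array B and 0.78 on control, 3.46-fold lower on array A than on array B (-1.79; chromosome 3, 96365147 to 96365206), and its other probe gave -1.68. Here array B stood apart and array A lay near control. Arrdc4, the arrestin-domain gene most like it, followed the same order at 0.19 on array A, 1.23 on array B and 0.41 on control (-1.04). These were the 2 lower genes of 10 measured in the list of MondoA and ChREBP targets, whose median was -0.11. Arrdc3, of the same arrestin-domain family, had -0.63 and Gpd1, a glycerol phosphate dehydrogenase gene, -0.44. The factors themselves, Mlxip (-0.08), Mlxipl (0.17) and Mlx (0.18), lay near 0.

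The Txnip promoter is shown because it holds a match to the carbohydrate response element, in capitals, at position -85 (chr3:96557707-96557956, plus strand, build GRCm38.p6, the 250 bases before the start).
Txnip: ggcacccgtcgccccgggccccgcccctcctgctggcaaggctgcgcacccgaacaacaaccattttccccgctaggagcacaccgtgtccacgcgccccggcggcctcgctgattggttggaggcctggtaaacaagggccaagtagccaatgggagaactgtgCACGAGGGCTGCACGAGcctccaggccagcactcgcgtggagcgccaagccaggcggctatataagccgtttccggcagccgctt
A match to the element on either strand was in 0.326% of all promoters, 0.594% of those of measured genes, 2 of 148 genes at least 2-fold higher on array A (1.35%), Fnip1 and Mfsd1, and 2 of 91 genes at least 2-fold lower (2.2%), Txnip and Sertad4. No match was in this window of Arrdc4.

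**Figure D3:**
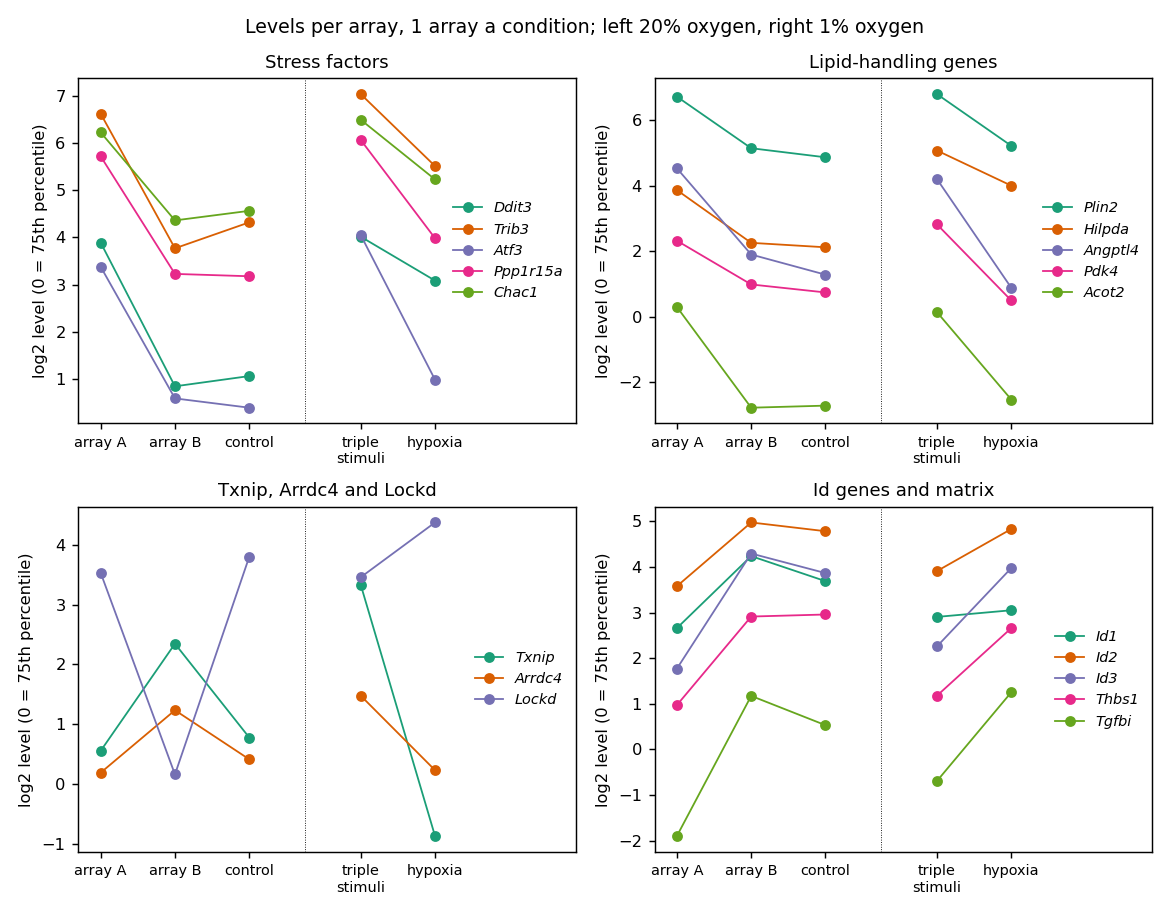
Log2 levels of 18 genes on single arrays, with array A, array B and control at 20% oxygen on the left of each panel and triple stimuli and hypoxia at 1% oxygen on the right. Stress and lipid-handling genes are high on array A, Txnip and Arrdc4 are high on array B, and Id genes, Thbs1 and Tgfbi are low on array A.

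Glucose uptake and glycolysis did not differ as a list, with a median of -0.01 over 20 measured genes. The exceptions were Hk2, the inducible hexokinase gene, at 2.91 on array A, 1.65 on array B and 1.88 on control (1.26), and Eno2, an enolase gene, at 1.02 on array A, -0.38 on array B and -0.29 on control (1.40). Pfkfb3, whose product sets the level of an activator of glycolysis, had -0.67, and Pfkp, a phosphofructokinase gene, 0.56. Aldoa, Tpi1, Gapdh, Pgk1, Eno1 and Ldha lay between -0.04 and 0.04. Of 15 genes of the polyol, hexosamine and pentose phosphate pathways, 8 lay above 0 and 0 were at least 2-fold different (median 0.05). The widest was Gnpnat1, of the hexosamine pathway, at 2.18 on array A, 1.36 on array B and 1.5 on control (0.81). The aldose reductase gene Akr1b3, the entry of the polyol pathway, was at 6.27 on array A, 6.83 on array B and 6.55 on control (-0.56), and its other probe gave -0.54. Sord, whose enzyme takes the next step of that pathway, and Rpia, of the pentose phosphate pathway, were each 0.49 above array B.

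Some targets of hypoxia-inducible factor were higher on array A although both arrays were at 20% oxygen. Of 17 measured outside glycolysis, 3 were at least 2-fold higher, 0 lower, and the median was 0.20. Ndrg1 was at 5.47 on array A, 3.78 on array B and 4.12 on control (1.69), and Ak4, a mitochondrial adenylate kinase gene, at 0.34 on array A, -1.05 on array B and -0.95 on control (1.39). Vegfa, which encodes the angiogenic factor, was at 3.41 on array A, 2.22 on array B and 2.31 on control (1.19; other probe 1.14). On the hypoxia array the level of Ak4 was 3.64. Ero1a, an ER oxidase gene, lay just under 2-fold, at -0.39 on array A, -1.35 on array B and -1.13 on control (0.97). Other targets of the pathway lay on both sides of 0, among them Bhlhe40 (0.70), Bnip3 (0.20), Car9 (-0.08), Egln1 (-0.08) and Ankrd37 (-0.47).

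Among redox genes, the metallothioneins and heme oxygenase led. Mt2 was at 7.57 on array A, 5.76 on array B and 6.08 on control (1.81), Mt1 differed by 1.46 (other probe 1.94), and Hmox1, which encodes the enzyme that breaks down heme, by 1.32 (other probe 1.40). They were the 3 of 17 at 2-fold or more. Of the classical NRF2 targets, the glutathione transferase gene Gsta2 was at 3.01 on array A, 2.25 on array B and 1.88 on control (0.77), and Osgin1 differed by 0.58, while Nqo1 (-0.24), Gclm (-0.05) and Srxn1 (0.17) lay nearer 0.

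Immediate early genes had a median of 0.40, with 17 of 19 above 0, 4 at least 2-fold higher and 1 lower. The MAP kinase phosphatase gene Dusp4 was at 2.65 on array A, 0.96 on array B and 1.12 on control (1.69), and Myc at 2.96 on array A, 1.36 on array B and 1.51 on control (1.59). Klf4 (1.47) and Ier2 (1.10) were the other higher genes, and Klf2, a factor of the same family as Klf4, was lower (-1.18). Ier2 was dim, at -0.43 on array A and -1.54 on array B. Of 23 genes of ribosome biogenesis, a program that Myc is known to drive, 21 lay above 0 with a median of 0.52, but Myc was the sole member at 2-fold. The nucleolar genes Gnl3 (0.87), Wdr43 (0.81) and Wdr12 (0.73) came next. The growth arrest genes Gadd45a (1.94) and Plk3 (1.81) were the 2 of 13 p53-list members at 2-fold or more, while Gadd45g (-0.70), the polo-like kinase gene Plk2 (0.60) and the p53 targets Cdkn1a (0.22) and Mdm2 (0.20) were not. Among chemokine and NF-kB targets the inducible cyclooxygenase gene Ptgs2 (1.65) and Cxcl2 (1.14) were higher and Cxcl5 (-1.33) lower, of 14 measured, and the chemokine gene Ccl2 had 0.87. Cxcl2 was dim, at -1.63 on array A, -2.77 on array B and -2.01 on control, so array B lay further from control.

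Autophagy and lysosome genes were shifted as a list, with 22 of 26 above 0, 4 at least 2-fold higher, 0 lower and a median of 0.44. Sqstm1, which encodes the autophagy cargo receptor p62, was at 4.61 on array A, 2.97 on array B and 3.26 on control (1.64). The other 3 were lysosomal: Hexa, a hexosaminidase gene, at 1.92 on array A, 0.41 on array B and 0.66 on control (1.52), Neu1, the lysosomal sialidase gene, at 5.51 on array A, 4.13 on array B and 4.42 on control (1.38), and Mcoln1, a lysosomal calcium channel gene (1.12). The cathepsins Ctsb (0.83), Ctsl (0.77) and Ctsd (0.58) and the membrane proteins Lamp1 (0.53) and Lamp2 (0.49) lay above 0 but under 2-fold, and the core autophagy genes Atg5, Becn1 and Ulk1 had -0.02, 0.02 and -0.74.

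The lower side was led by inhibitors of basic helix-loop-helix factors and by matrix genes. In the list of Id genes and the BMP pathway, 4 of 10 measured members were at least 2-fold lower and 0 higher, with a median of -0.23. Id3 was at 1.77 on array A, 4.29 on array B and 3.87 on control, 5.75-fold lower on array A than on array B (-2.52; chromosome 4, 135700075 to 135700249). Id1 was at 2.66 on array A, 4.24 on array B and 3.69 on control (-1.58), and Id2 at 3.58 on array A, 4.97 on array B and 4.78 on control (-1.40). All 3 were lower on array A than on both other arrays at this oxygen level. Smad6, an inhibitory Smad gene induced by BMP, had -1.41, which was -0.81 with a normexp background correction, and Atoh8 was measured on array B only and was at least 5.23-fold lower on array A (bound -2.39). The ligand and receptor genes Bmp4 (0.70), Bmp7 (0.23), Bmpr1a (-0.12) and Bmpr2 (0.43) were within 2-fold.

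Tgfbi, which encodes a matrix adhesion protein induced by TGF-beta, had the largest difference on the lower side. It was at -1.90 on array A, 1.17 on array B and 0.53 on control (-3.07; chromosome 13, 56740460 to 56740519). Thbs1, the thrombospondin gene whose product activates TGF-beta, was at 0.97 on array A, 2.91 on array B and 2.96 on control (-1.94; chromosome 2, 117952585 to 117952644). These were the 2 of 15 measured genes of the TGF-beta and matrix list at 2-fold, and 12 of the 15 lay below 0 (median -0.33). Snai2, which encodes a transcriptional repressor that promotes epithelial-mesenchymal transition, ran the other way. It was at -0.85 on array A, -1.82 on array B and -1.70 on control (0.97), just under 2-fold. Timp3, a metalloproteinase inhibitor gene, had -0.80, and Fn1 (0.08), Ccn1 (-0.12) and Col4a2 (-0.13) were close to 0.

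Aqp1, the water channel gene of the proximal tubule, was at 2.0 on array A, 3.70 on array B and 3.20 on control, 3.24-fold lower on array A than on array B (-1.70; chromosome 6, 55298480 to 55298539). It was the 1 member at 2-fold of 11 measured genes of water channels, claudins and tubular transport, where the claudin gene Cldn2 had -0.63 and Aqp11 -0.41. Bmf, a proapoptotic gene, was at -2.60 on array A, -0.77 on array B and -1.22 on control (-1.84), the 1 of 12 BCL2 family members at 2-fold. The proapoptotic genes Bid (0.91) and Pmaip1 (0.81) and the antiapoptotic Bcl2 (0.57) lay on the other side of 0. Cyp1a1, the classical target of the aryl hydrocarbon receptor, was at -1.87 on array A, -0.06 on array B and -0.26 on control (-1.80), while Cyp1b1 differed by -0.25 and Tiparp by 0.27. For Ahr itself the probes disagreed, with -0.56 and 1.03.

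Some lists lay mostly below 0 by small amounts, against a median of -0.03 and 44.4% above 0 over all genes. No spread between replicates was at hand to set these against. Of 26 genes of oxidative phosphorylation 25 lay below 0, all between -0.30 and 0.04, with a median of -0.16, and Ndufa4 (-0.30), Cox7a2 (-0.29), Cox6c (-0.25) and Ndufa9 (-0.25) were the furthest below. Of 26 genes of the cell cycle and replication 22 lay below 0 (median -0.19), with Ccne1 (-0.63), Plk1 (-0.44) and Cdk1 (-0.42) the furthest below and Ccnd2 the exception (1.23, and 0.54 with a normexp background correction). Of 14 heat shock genes 12 lay below 0 (median -0.12), and the widest were Hspa1a (-0.73), Dnajb1 (-0.55), Dnaja1 (-0.35) and Bag3 (-0.26). Of 18 interferon-induced genes 8 were measured on both arrays, with 7 below 0 and a median of -0.31. Ifit3 had -0.76, Xaf1 -0.73 and the RNA sensor gene Ddx58 -0.63, and Bst2 was the 1 above 0 (0.52). Ccnd2 was the single member of these 4 lists at 2-fold or more.

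Outside the lists and apart from Lockd the largest difference of a gene with a curated symbol was in Lims2 (2.95), an adaptor gene of focal adhesions. It was followed by Creb5 (2.35), a gene of the CREB family, the angiopoietin-like gene Angptl6 (2.33), Uap1l1 (2.28), Ptgds (2.27), the prostaglandin D synthase gene, Fam171b (2.26), the glycogen-binding gene Stbd1 (2.14) and the peptide hormone gene Adm2 (2.09). Uap1l1 was at 4.67 on array A, 2.39 on array B and 2.87 on control. On the lower side were the kinase gene Cdkl1, at -2.99 on array A, -0.50 on array B and -0.49 on control (-2.49), Tafa5 (-1.97), Trabd2b (-1.86; other probe -1.75), the steroid dehydrogenase gene Hsd3b4 (-1.82), Ddit4l (-1.81), Tmem145 (-1.79; other probe -1.57), Myom3 (-1.72), Prrx2 (-1.71), the potassium channel gene Kcnj16 (-1.71), and among brighter genes Nrn1 (-1.71), the platelet chemokine gene Ppbp (-1.67) and Rasl11b (-1.56). Among genes measured on array A alone, Ciart, a circadian repressor gene, was at least 8.83-fold higher and Lce1g and Chst2 had bounds of 2.67 and 2.30. Among those measured on array B alone, Alpk1 was at least 4.77-fold lower on array A (bound -2.26), and Lect2, Syne4 and Brinp3 had bounds of -1.76, -1.71 and -1.69. Chst2 and Alpk1 each rest on 1 spot that was high on a single array of the 6. Chst2 was at -1.04 on array A and between -5.34 and -4.73 on the others. Alpk1 was at -1.33 on array B and between -5.60 and -4.07 on the others. Ptgds, although measured on both arrays, also rests on 1 spot and was highest on array A alone, at -0.77 against -3.63 to -2.45 on the others.

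The control array was set beside the 2-fold genes to see which array lay further from it. Of 223 higher genes with control measured, array A was the one further from control in 203, and in 185 of these array B was within 0.5 of control. For 20 genes array B was further away. Of the 136 lower genes, array A was further from control in 124, with array B within 0.5 of control in 110, and array B was further in 12. The median of array A minus control was 1.14 over the higher genes and -1.02 over the lower ones, and that of array B minus control was -0.15 over the higher genes and 0.23 over the lower ones. Control lay between the arrays in 167 of the 223 and in 114 of the 136. The 2 differences share the control array and array A minus array B chose the genes, so these counts describe the position of control and nothing further.

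**Figure D4:**
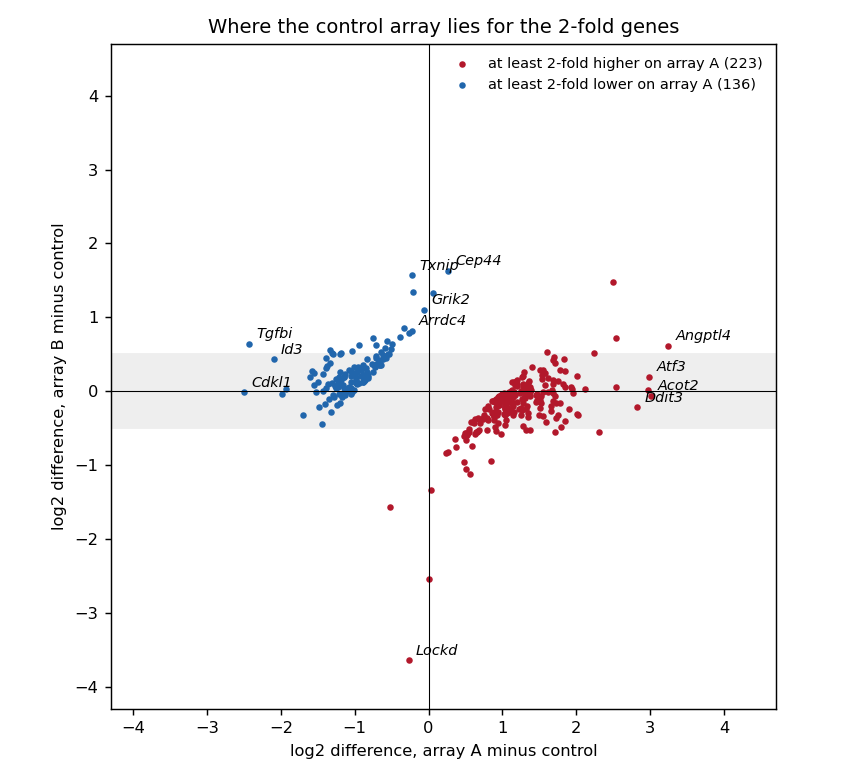
The 2-fold genes plotted by array A minus control (horizontal axis) and array B minus control (vertical axis), both log2 differences. Red genes are higher and blue genes lower on array A than on array B, and the grey band marks array B within 0.5 of control, which holds most of both. Lockd lies at the bottom and Txnip and Cep44 at the top, all near 0 on the horizontal axis.

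The genes apart on array B were few, and several rested on 1 probe. Txnip was the largest of the named ones that were higher on array B, with -1.79 and -1.68 in its probes. Cep44 was at -2.51 on array A, -1.15 on array B and -2.77 on control (-1.37), and Grik2, a glutamate receptor gene, at -2.63 on array A, -1.48 on array B and -2.58 on control (-1.16). Both are dim, and with a normexp background correction the differences were -0.83 and -0.64. The widest difference of all was Lockd, a long noncoding RNA next to Cdkn1b, at 3.53 on array A, 0.16 on array B and 3.80 on control (3.37), with levels of 3.46 in triple stimuli and 4.37 in hypoxia. The low level was confined to array B among the 6 arrays, and no further probe of it was measured. A bright probe with no gene symbol behaved alike, at 9.04 on array A, 6.49 on array B and 9.03 on control, and between 8.82 and 9.04 on the 5 arrays other than array B. Cmtm4 (1.05) was also lowest on array B, but its other probe gave 0.07. Zfp708 was at -1.92 on array A, -3.09 on array B and -2.43 on control (1.17).

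The comparison has a counterpart at 1% oxygen, triple stimuli against hypoxia, which differ by both stimuli and use neither array A nor array B. Among 15127 genes measured on all 4 arrays, 296 were at least 2-fold higher in triple stimuli than in hypoxia (1.96%) and 187 at least 2-fold lower (1.24%). Of 215 genes higher on array A, 185 were above 0 in this second difference, 93 at least 2-fold higher (43.3%) and 2 at least 2-fold lower; their median was 0.79. Of 108 genes lower on array A, 96 were below 0, 37 at least 2-fold lower (34.3%) and 2 at least 2-fold higher; their median was -0.81. The median over all 15127 genes was -0.02. All 6 arrays share 1 slide, and the 4 are single arrays, so no test was made.

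**Figure D5:**
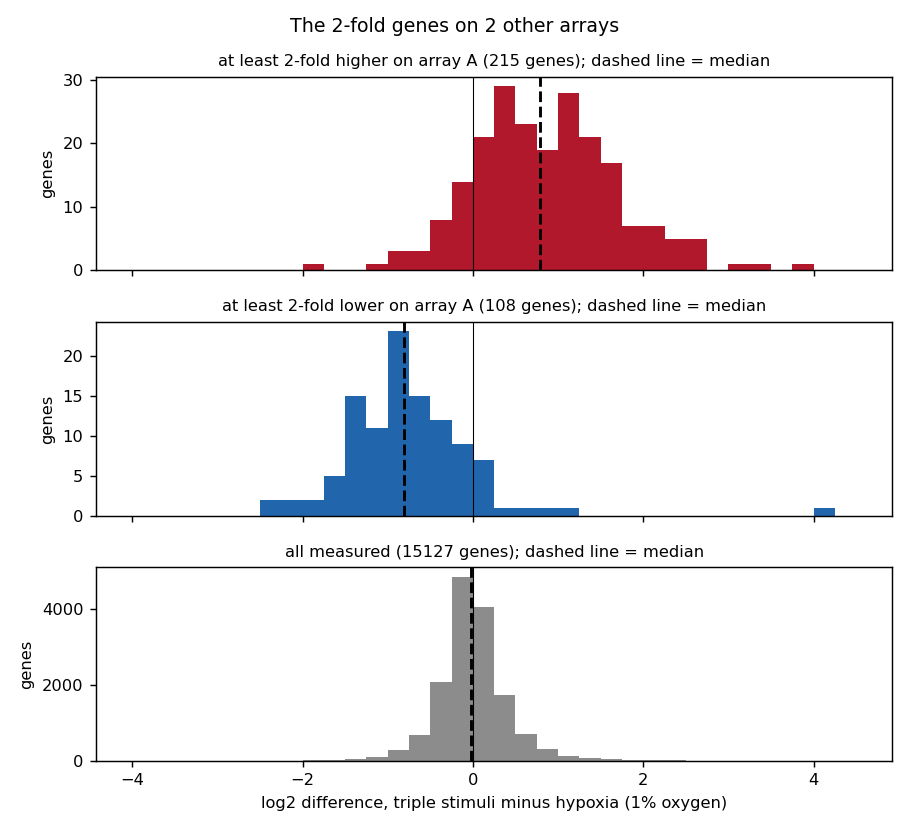
Histograms of the log2 difference triple stimuli minus hypoxia, for genes at least 2-fold higher on array A than on array B (top, 215 genes), at least 2-fold lower (middle, 108 genes) and all measured genes (bottom, 15127 genes). The dashed medians are 0.79, -0.81 and -0.02.

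The same counts were made apart for each array that departs from control. Of 196 higher genes apart on array A, 176 were above 0 and 93 at least 2-fold higher in triple stimuli, and of 100 lower genes apart on array A, 91 were below 0 and 36 at least 2-fold lower. Of 19 higher genes apart on array B, 9 were above 0, 10 below 0, 0 at least 2-fold higher and 1 at least 2-fold lower. Of 8 lower genes apart on array B, 5 were below 0 and 3 above 0, with a median of -0.10. Among these 8, Txnip and Arrdc4 were at least 2-fold higher in triple stimuli and Gbp2 at least 2-fold lower (-1.21). Txnip was at 3.33 in triple stimuli and -0.87 in hypoxia (4.20), and Arrdc4 at 1.48 in triple stimuli and 0.23 in hypoxia (1.25). The triple stimuli array was high both in most genes high on array A and in this pair high on array B.

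Single genes at 1% oxygen were as follows. Atf3 was at 4.05 in triple stimuli and 0.98 in hypoxia (3.06), and Angptl4 at 4.20 in triple stimuli and 0.89 in hypoxia (3.32). Acot2 was at 0.14 in triple stimuli and -2.52 in hypoxia (2.67), Plin2 at 6.80 in triple stimuli and 5.22 in hypoxia (1.58), and Ppp1r15a at 6.06 in triple stimuli and 3.98 in hypoxia (2.08). Ddit3 differed less (0.93), and was at 3.08 in hypoxia against 1.06 on control. Id3 was at 2.26 in triple stimuli and 3.98 in hypoxia (-1.72), Tgfbi at -0.69 in triple stimuli and 1.25 in hypoxia (-1.94), and Thbs1 at 1.18 in triple stimuli and 2.66 in hypoxia (-1.48), whereas Id1 differed by -0.14. By list, the medians of triple stimuli minus hypoxia were 0.97 for ATF4 stress factors (13 of 14 above 0), 0.72 for serine and one-carbon enzymes, 0.60 for amino acid transporters, 0.61 for aminoacyl-tRNA synthetases and 0.88 for ribosome biogenesis (23 of 23 above 0). Immediate early genes were wider apart here, with 17 of 17 above 0, 9 at least 2-fold higher and a median of 1.19. Lysosomal and autophagy genes were not, with a median of 0.09, and Hexa and Neu1 differed by 0.37 and -0.24. Hypoxia-inducible factor targets leaned lower in triple stimuli, 12 of 17 being below 0 (median -0.275), with Ndrg1 at 0.11 and Vegfa at 0.02. Beta-oxidation and PPAR target genes centred on -0.01, with 6 of 14 above 0 and 2 at least 2-fold higher. Thioesterases and synthetases centred on -0.04, with 4 of 10 above 0. Ak4 (-0.275), Eno2 (-0.13), Mt1 (-0.45) and Vldlr (-0.22) were among the 30 of 215 higher genes below 0 here. All 24 cholesterol genes lay below 0 (median -0.59), whereas the list median of array A minus array B was -0.03. Both arrays lay below control in this list, with medians of -0.25 for array A minus control and -0.26 for array B minus control.

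The threshold passed through an even run of values. Dip2c, Casp4 and Tpp1 stood just inside, with differences that round to 1.0, and Tcam1 and Trmt61a, which also round to 1.0, and Hs1bp3 (0.99) just outside. On the lower side Srd5a1, Inhbb and Ly6c1, which round to -1.0, stood just inside, and Bcl2l15 and Trmt9b, which also round to -1.0, and Loxl1 (-0.99) just outside. Of 58 higher genes with another measured probe, that probe pointed the same way in 57 and was at least 2-fold in 35, and of 18 lower genes in 16 and 8. The widest disagreements were Pip5k1a (1.74, against 0.09 and 0.31 in its other probes), Snhg16 (1.44 against 0.14), Ggt6 (-1.14 against 0.32), C8g (-1.25 against 0.17) and Armcx3 (1.13 against 0.00). In 6 bands of spot rows within the array the share of higher genes ran between 1.17% and 1.58% and that of lower genes between 0.70% and 1.15%.

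The proximal tubule label was only partly borne out by its markers. Of 17 marker genes, 6 had a signal well above background on arrays A and B: Cdh16, Pax8, Lrp2, Aqp1, Cubn and Ggt1. Cdh16, a kidney cadherin gene, was at 6.31 on array A and 6.92 on array B, and Pax8, a renal transcription factor gene, at 3.38 on array A and 3.34 on array B. Lrp2, the megalin gene of protein reabsorption, was at 2.85 on array A and 3.34 on array B. The transporters Slc34a1, Slc5a2, Slc22a6 and Slc22a8 and the factor Hnf4a were not. Of the markers of other cell types, 1 of 10 for distal nephron and collecting duct, 1 of 6 for podocytes, 2 of 7 for endothelium, 0 of 7 on the array for fibroblasts and smooth muscle, 4 of 8 for leukocytes and 1 of 6 for adipocytes were measured. Among them Cd68, also a lysosomal membrane gene, was at 1.05 on array A, -0.82 on array B and -0.87 on control (1.87), while the leukocyte genes Ptprc and Lyz2 were well above background on neither array. The linear signals of the 8 leukocyte markers, as multiples of the 75th percentile, summed to 22.04 on array A and 22.67 on array B. Cd68 gave 2.07 of this sum on array A and 0.57 on array B, so most of it came from other leukocyte markers. Of the 4 leukocyte markers measured, 2 lay above 0 and 2 below, between -0.45 and 1.87.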

How the data were processed

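RNA of mProx24 cells was hybridised to 6 single-colour Agilent arrays, 1 per condition. Per the file headers, the authors used Agilent Feature Extraction, version 10.7.3.1, which removed background and spatial trends and set signals at background to a surrogate value. The deposited scanner files give each spot a linear intensity, not scaled across arrays. The deposited value table gives per probe a ratio of that signal to a percentile of the array, and was used only to check labels. Its scale was read from its values.

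From there, log2 of the processed signal was taken relative to the array's 75th percentile over non-control spots, and spots of a probe were averaged. Probes with an outlier mark of the scanner software on array A or array B (169 of 55681) were left out. The probe with the highest mean level on the 6 arrays stood for its gene. It was measured when well above background on both arrays, by the scanner software's call, and called at a log2 difference of 1 or more in size. Where 1 array was dim, its level was raised to the lowest signal well above background on that array, which gives a bound. No test was possible with 1 array per condition, and precision is limited by the number of arrays. The procedure was checked on simulated data.

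Probe positions are on mm9, as the files give them, with no exon or untranslated region annotated. Of 34682 gene names, 22278 matched the RefSeq table (GRCm38.p6), and promoter sequences are RefSeq's on that build. Motifs were searched on both strands of the 250 bases before each start. The 60-base probes are not printed.

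Named were the 15 largest and 15 smallest differences with a curated symbol, up to 5 bounds per direction, in each of 30 lists the 4 widest members and every member at 2-fold, the 10 widest bright genes per direction, the 5 widest genes apart on array B, 3 genes on either side of each threshold and 5 with disagreeing probes. A few of these are not reported here. Genes named beyond this rule were chosen after their values were seen, as were Cmtm4, Cd68 and the bright probe with no symbol. The comparison, the lists and the rule were chosen with earlier results of these data known. Analyses used Python 3.11.15 with NumPy 2.4.6, pandas 2.3.3 and statsmodels 0.14.6. The alternatives were other scalings and centrings, a background correction, other filters and other probe rules.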

Additional observations from a re-analysis of the deposited data

How the results depend on the processing

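Under 8 of 10 alternatives the counts stayed within 1.5 times those reported: 209 to 291 genes were at least 2-fold higher on array A and 118 to 186 lower. With a normexp background correction 136 were higher and 42 lower, and among bright genes only (mean level of 0 or more, which leaves 10699 genes) 133 and 44, fewer by construction. Of the 120 named genes at 2-fold, 97 kept it with normexp, 111 with the mean over all measured probes and at least 114 under each other alternative in which all 120 were measured. No named gene at 2-fold changed sign. Of the list medians of at least 0.1 in size, 3 changed sign: the BCL2 family had -0.011 with normexp and -0.12 among bright genes, glucose-responsive targets 0.094 among bright genes, and chemokines and NF-kB targets 0.048 with the mean of all probes. The median of ATF4 stress factors ran between 1.27 and 1.36 over all settings and that of Id genes and the BMP pathway between -0.84 and -0.14. No paired analysis was possible because each condition has 1 array.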

Other observations

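Host genes of small nucleolar RNAs (snoRNAs), which carry snoRNAs in their introns and several of whose spliced transcripts are known to be degraded when translated, were looked at after their values were seen. They were taken by symbol, every Snhg gene with Gas5 and Zfas1, which gave 17 genes on the array. Of the 12 measured on both arrays, 9 lay above 0, 7 were at least 2-fold higher on array A, 0 were lower, and the median was 1.19. Snhg12 was at 4.62 on array A, 2.54 on array B and 2.51 on control (log2 difference 2.09), Zfas1 at 5.67 on array A, 3.95 on array B and 3.85 on control (1.72), and Snhg1 at 3.46 on array A, 1.88 on array B and 1.78 on control (1.58). Snhg5 (1.54) and Snhg17 (1.35) were also at 2-fold, while Snhg3 (-0.09) and Snhg10 (-0.05) were near 0 and Snhg18 had -0.61. For 2 of the 7 the probes disagreed, as the other probe of Snhg16 gave 0.14 and those of Gas5 gave -0.04 and 0.12. Snhg12 was also higher in triple stimuli (5.22) than in hypoxia (2.79).

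Further lysosomal and sugar-handling genes outside the lists, also picked after their values were seen, were at 2-fold or more. Dpp7, a lysosomal peptidase gene, was at 4.11 on array A, 2.10 on array B and 2.51 on control (2.01), Renbp, a renin-binding epimerase gene of sugar metabolism, differed by 1.89 (other probe 1.80), Tmem144 by 1.75, and Creg1, which encodes a lysosomal glycoprotein, by 1.54 (other probes 1.21 and 1.62). Other genes picked in this way were the growth factor gene Areg (1.72), the chromatin gene Hmga2 (1.97; other probe 1.91), the clock-linked repressor Nfil3 (1.56) and Arid5a (1.89) on the higher side, and the bile acid receptor gene Nr1h4 (-1.45), the phosphate transporter gene Slc17a1 (-1.47), the homeobox gene Irx3 (-1.29) and the chemokine receptor gene Ackr3 (-1.33) on the lower side. Creg1 was at 4.06 in triple stimuli and 3.45 in hypoxia, and Hmga2 at 2.13 in triple stimuli and -0.36 in hypoxia.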
